A study of Capra hircus with 6 samples.

Results

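The skin of brown Pashmina goats was compared with that of white ones, gene by gene, and both ends of the resulting ratio are described here across the compartments of the skin. From a table of 26938 loci, those with a comparison of white and brown skin of status OK and an FPKM of at least 1 in either colour were kept, which left 14284. FPKM stands for fragments per kilobase of transcript, scaled to the number of mapped fragments, so levels can be set side by side between genes. Between colours, a level also depends on the scaling of the libraries, which is not given in the sources used here. The animals were 6 female Chanthangi Pashmina goats (Capra hircus) aged 26 months, 2 of them white, 2 brown and 2 black, and no treatment or genotype was given for any of them. Each gave a punch of shaved flank skin under a local anaesthetic, and polyadenylated RNA of the whole punch was sequenced. The deposited value is 1 FPKM per colour over its 2 goats. No value per goat was used, so no SD can be given, no test between colours was possible, and it cannot be said whether both goats of a colour carry a difference or 1 of them does. The table gives no fragment count behind a value, so the counting error of single values cannot be stated. Everything below is therefore a description of 1 white and 1 brown value per gene, with the black value beside it as a further level.

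Coat colour is made by melanocytes, the pigment cells of the hair bulb, which build melanin in organelles called melanosomes and hand these over to the keratinocytes that form the hair shaft. The enzyme tyrosinase starts the synthesis, and the choice between black-brown eumelanin and red-yellow pheomelanin is set through the melanocortin receptor MC1R, which α-MSH activates and the agouti protein ASIP blocks. A punch of skin also holds the growing follicle with its shaft and root sheaths, the layered epidermis, collagen-rich dermis, glands, vessels, smooth muscle, nerve, fat and resident immune cells. Markers of the tissue were abundant in both colours: the basal keratin KRT14 was at 8995 FPKM in white and 12437 in brown skin, the keratin of upper epidermal layers KRT1 at 4835 and 5825, and the dermal collagen gene COL1A1 at 475 and 306. Of 25 skeletal muscle genes, 20 were found in the table under these symbols. Only 4 were among the loci described, the highest of them TCAP at 11.2 and 14.0 FPKM.

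The log2 ratio of brown over white was shifted so that its median over loci that reached 1 FPKM in white and in brown was 0, a shift of 0.03 on the log2 scale, and ratios below are given on this relative scale. Where a gene is followed by brackets, the ratio is the number in them, or the last one after its FPKM values. A locus was counted as higher in brown at a relative log2 ratio of at least 1, which is 2-fold, and as lower in brown at -1 or less. Of 14191 loci above 0 in both colours, 376 were higher in brown (2.65%) and 643 were lower (4.53%), while 13172 lay between. These shares are the background for the gene groups below, together with a median ratio over the same loci of -0.01 and a central range, from the 5th to the 95th percentile, of -0.95 to 0.75. At 4-fold or more, 59 loci were higher and 84 lower. The balance of both ends depends on the centre: with the median of 15 reference genes set to 0 in place of the median of all loci, 210 loci were higher and 1115 lower, so that the higher ones made up 15.8% of both ends in place of 36.9%. Another 93 loci were listed at 0 in one colour, 46 in white and 47 in brown, and 50 of these 93 carried the symbol of a transfer RNA or microRNA. No ratio is given for them.

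**Figure D1:**
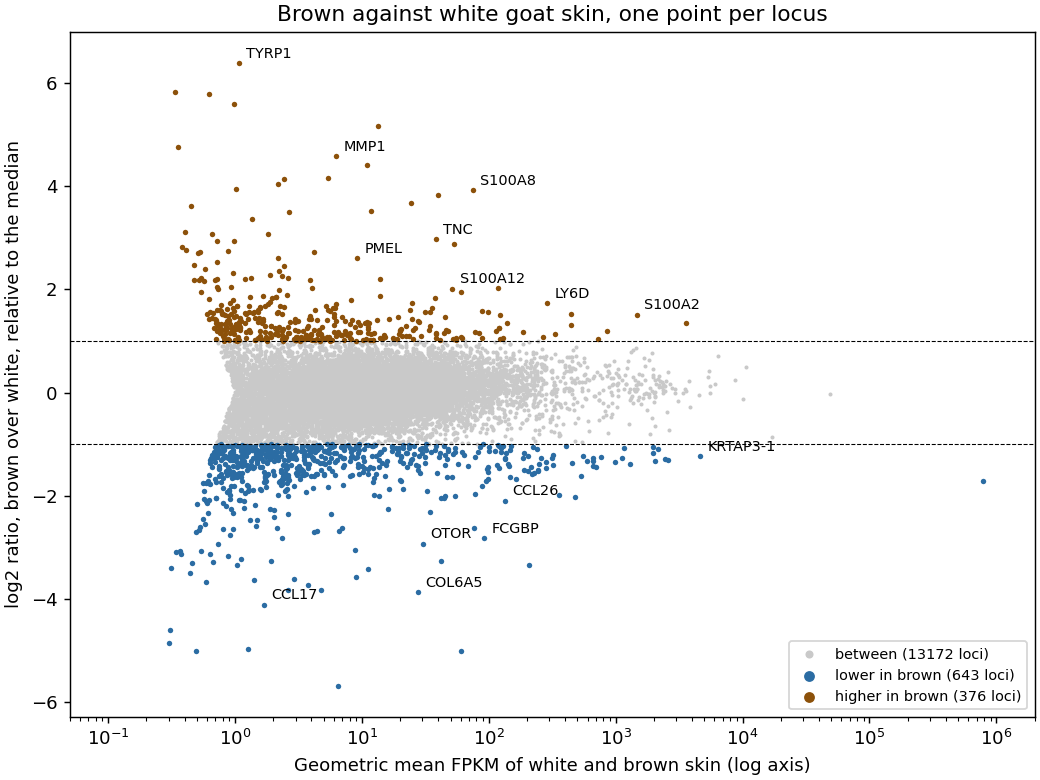
Each point is a locus, with the geometric mean of its white and brown FPKM on the x axis (log scale) and its log2 ratio of brown over white, relative to the median, on the y axis. Brown points (376 loci) are at least 2-fold higher in brown, blue points (643 loci) at least 2-fold lower and grey points (13172 loci) lie between; above 100 FPKM blue points outnumber brown ones.

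The lower end reached further into the abundant transcripts. Among the 820 loci with a mean FPKM above 100, 64 (7.80%) were lower in brown and 18 higher, whereas between 10 and 30 FPKM the shares were 1.74% and 1.16%. Low levels filled both ends: at a mean FPKM of up to 1, 28.5% of 442 loci were lower and 19.5% higher. Where white and brown both reached 1 FPKM, 413 loci were lower and 234 higher. Loci spanning more than 100 kb in the genome, introns included, had a median of -0.11 against 0.00 for those of 30 to 100 kb. At the edge of the lower end stood IVL just inside (129.8 FPKM in white, 63.5 in brown) and HSPB8 just outside (115 and 56.3). HSP90B1 lay just outside the higher end at 175 and 342 FPKM, and CST7 just inside it at 0.590 and 1.16. At the FPKM limit, ZNF268 (0.883 in white and 1.00 in brown) was just inside and ROR1 (0.999 and 0.764) just outside.

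TYRP1, PMEL, DCT, TYR and MLANA, genes that make melanin or build the melanosome, were higher in brown than in white skin. Of 12 genes of melanin synthesis and melanosome structure described, 5 were higher in brown and 1 was lower, with a median ratio of 0.55, which was 1.89 over those with an FPKM of at least 5 in either colour. Of white and brown, TYRP1, PMEL and DCT reached 5 FPKM in brown only, so the larger median follows in part from that limit. TYRP1, which encodes a melanosomal oxidase of the eumelanin pathway, was at 0.120 FPKM in white skin, 9.72 in brown skin and 9.79 in the black, a ratio of 6.37 and the largest among genes named by symbol. Because its white value is close to 0, this ratio moved to 5.51 with 0.1 FPKM added to each value and to 3.29 with 1 FPKM added. PMEL, which forms the fibrils on which melanin is laid down, was at 3.77, 22.5 and 30.9 FPKM in white, brown and black skin (2.60). DCT, an enzyme acting beside TYRP1, was at 1.05, 5.60 and 2.50 (2.45). The gene of tyrosinase itself, TYR, was at 0.704, 2.48 and 1.98 (1.85), so white skin held the lowest level of each of these 4 genes. With 1 FPKM added, the ratio of DCT was 1.71 and that of TYR 1.06. MLANA, a melanosome membrane protein, was different in that its black value (5.95) lay next to its white one (5.86), below 14.8 in brown (1.36). In whole skin, a smaller number of melanocytes and less RNA per melanocyte cannot be told apart, and this holds for every cell type below.

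The remaining genes of the group lay within 2-fold, apart from 1. The ion and solute carriers of the melanosome SLC45A2 (1.57 FPKM in white, 2.31 in brown) and SLC24A5 (2.83 and 3.57) had ratios of 0.59 and 0.36. The melanosomal receptor GPR143 had one of 0.52, and OCA2, whose loss causes albinism in humans, one of -0.17. GPNMB (61.1 and 54.3 FPKM) and CYB5A (95.6 and 102) were the most abundant members and the closest to 0 together with OCA2. SLC7A11, the cystine transporter that in mice supplies pheomelanin synthesis with cysteine, was lower in brown: 1.20, 0.342 and 0.104 FPKM in the white, brown and black skin (-1.78). At this low level the difference falls to -0.68 with 1 FPKM added.

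In whole skin, the machinery around pigment synthesis showed no difference of that size. All 23 genes of melanosome biogenesis and transport described lay within 2-fold, with a median of 0.00, from -0.35 for SYTL2 to 0.79 for RAB27A, the small GTPase that carries melanosomes to the cell tips (12.9 FPKM in white, 21.9 in brown, 16.2 in black). The 13 genes of melanocyte specification and survival lay within 2-fold as well, with a median of -0.05. MITF, the master transcription factor of the lineage and an activator of TYR, TYRP1 and DCT, was at 8.83 FPKM in white and 7.11 in brown (-0.28), and SOX10, which acts upstream of it, at 1.99 and 2.81 (0.53). The receptor gene KIT was at 11.0 and 8.02 FPKM (-0.42), but mast cells carry this receptor too. The gene of its ligand, KITLG, was at 10.3 and 9.99 (-0.01). Some members of these groups were much more abundant than TYR, such as BLOC1S1 (151 and 161 FPKM, 0.12) and TFAP2A (83.0 and 78.5, -0.05). SOX10 and ERBB3 also count among the Schwann cell genes. What part of these levels came from melanocytes was not tested.

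None of the 5 pigment switch genes described passed 2-fold between brown and white, and all 5 lay below 0. ASIP was at 177 FPKM in white and 114 in brown (-0.60), while its black value was 0.882 FPKM. White and brown skin thus both held more than 100 FPKM of the agouti transcript, and white was the higher of them. MC1R was low throughout, with 2.09, 1.39 and 1.80 FPKM in white, brown and black skin (-0.56). ATRN (-0.06) and MGRN1 (-0.20), whose loss darkens the coat of agouti mice, and CORIN (-0.24), a protease that limits agouti action in mice, were close to 0. POMC, the precursor of α-MSH, MRAP and AGRP did not pass the limits for being described.

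**Figure D2:**
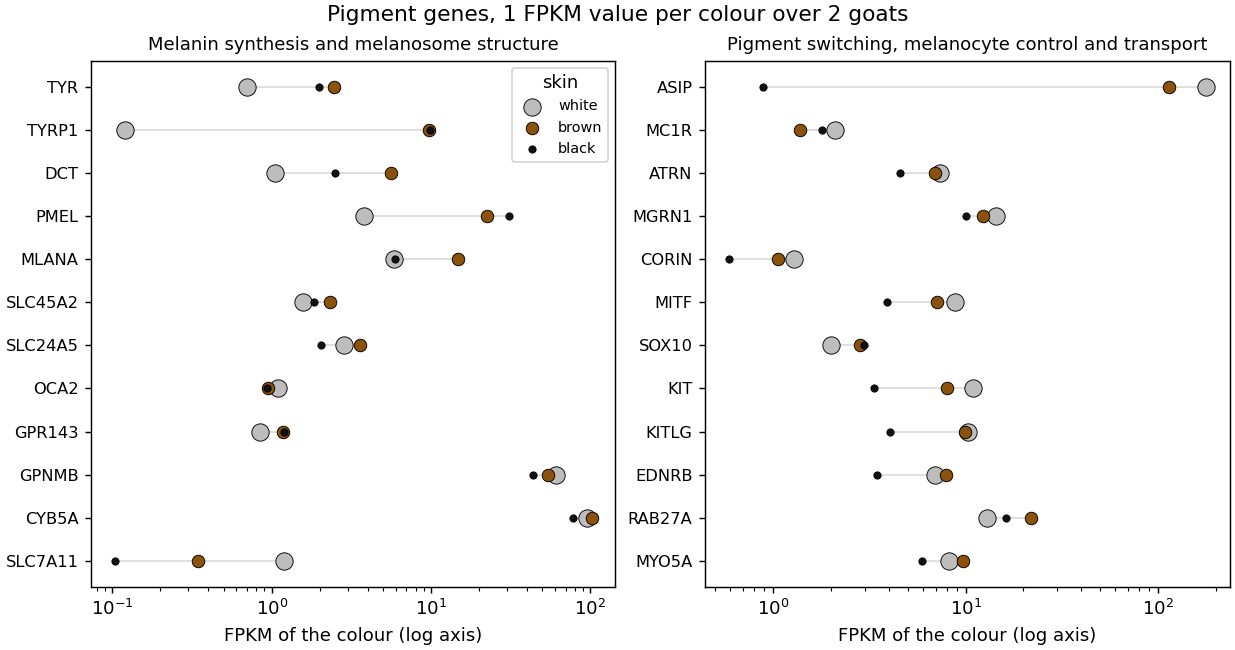
FPKM (x axis, log scale) of pigment genes in white (large grey points), brown (brown points) and black skin (small black points), 1 value per colour over its 2 goats, with a line from the lowest to the highest value. In the left panel white is lowest for TYRP1, PMEL, DCT, TYR, MLANA, SLC45A2 and GPR143 and highest for SLC7A11, OCA2 and GPNMB. In the right panel white and brown lie within 2-fold of each other for every gene, and ASIP is low in black only.

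Hair shaft genes lay on the lower side. All 13 genes described of the hair shaft group had a ratio below 0, 7 of them were lower in brown and none higher, with a median of -1.04. Keratin-associated proteins, which crosslink the keratin filaments of the shaft, led in abundance: KRTAP3-1 was at 7196 FPKM in white and 2989 in brown (-1.24), and KRTAP11-1 at 3248 and 1262 (-1.33). Among the hair keratins, KRT40 was at 44.1 and 16.3 FPKM (-1.40), KRT39 at 38.9 and 16.7 (-1.19) and KRT82 at 64.3 and 30.7 (-1.03). The follicular enzyme PADI3, which converts arginine of shaft proteins to citrulline, was at 51.1 and 19.4 (-1.37), and S100A3, a calcium-binding protein of the hair cuticle, at 218 and 104 (-1.04). KRT35, the most abundant hair keratin of the group, stayed within 2-fold at 475 and 270.0 (-0.78). Black skin lay near brown at the leading genes, with 3098 FPKM for KRTAP3-1 and 1229.8 for KRTAP11-1. Of the 38 genes on this list, 25 were not found in the table under these symbols.

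Next to the hair keratin genes, many loci carry only a LOC symbol, and these were lower in brown as well. From KRT39 to LOC100861381, a stretch of 429.6 kb, 28 loci were described in order; all 28 had a ratio below 0, 27 were lower in brown, and the median was -1.40 (range -2.05 to -0.88). The exception, LOC102174594, was at 303 FPKM in white and 161 in brown. Summed over the stretch, FPKM was 22253.5 in the white, 8723 in the brown and 7910.2 in the black skin. KRTAP3-1 lies within it, and so do LOC102176457 (2111 and 796 FPKM), LOC102176726 (1744 and 713) and LOC100861381 (1697 and 787). The table pairs these loci with no gene name, and no function is assigned to them here. Reads that matched several places were kept at all of them, so near-identical neighbours may share reads and their ratios are not independent, and 4 of the 28 loci share a span with another. The stretch was picked after its values were seen. Another block outside it held KRTAP11-1, LOC100861181 (4074 and 1612 FPKM) and KAP8 (3869.6 and 1548), which follow each other over 81.3 kb with ratios from -1.33 to -1.29. In all, 12 runs of 3 or more neighbouring loci were lower in brown and 3 were higher.

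**Figure D3:**
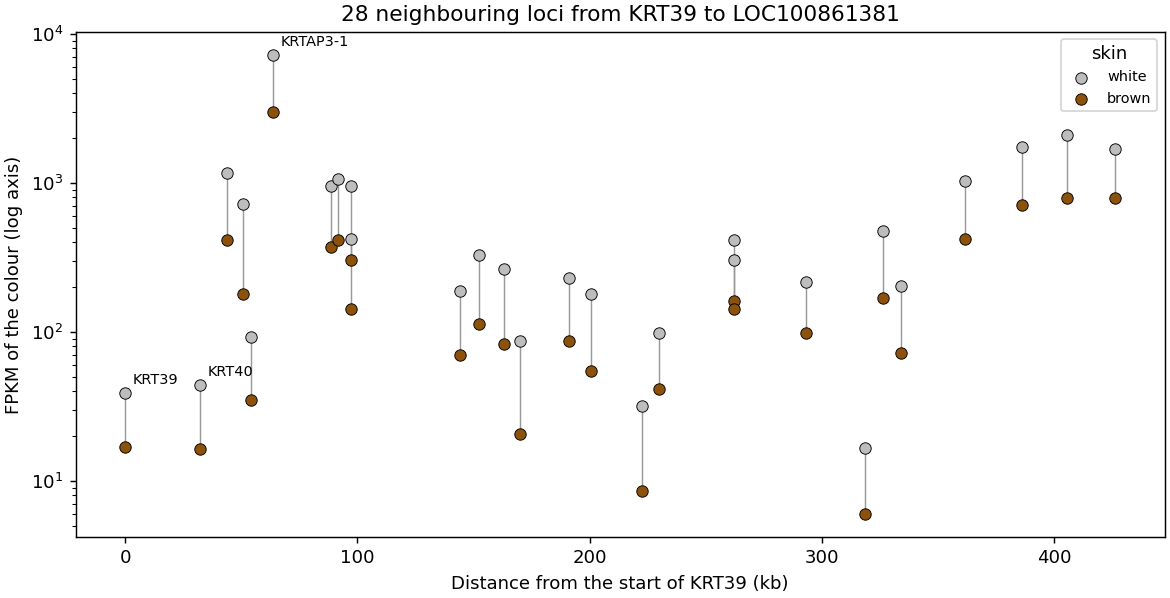
FPKM (y axis, log scale) of the 28 neighbouring loci from KRT39 to LOC100861381 in white (grey) and brown skin (brown), 1 value per colour, against the distance of each locus from the start of KRT39 in kb. At every one of the 28 loci the brown value lies below the white one.

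Genes of the inner root sheath, the layer that moulds the growing shaft, followed in the same direction. Of 11 described, 10 lay below 0, 3 were lower in brown and none was higher (median -0.72). TCHHL1, a trichohyalin-like gene, was at 90.5 FPKM in white, against 21.5 in brown and 38.3 in black (-2.04). KRT72, a keratin of this layer, was at 316 and 133 (-1.22), and DSG4, a desmosomal cadherin of the hair, at 31.7 and 13.2 (-1.24). The abundant members KRT25 (3389.7 and 2011 FPKM), KRT27 (2598 and 1619) and trichohyalin, TCHH (1597 and 1022), were lower by less than 2-fold, with ratios of -0.72, -0.65 and -0.61. DSC1, which epidermis also makes, was the member above 0 (0.06).

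Among the regulators of the hair matrix and of follicle growth, 22 of 23 lay below 0, 3 were lower in brown and 1 was higher (median -0.61). FOXN1, the transcription factor lost in nude mice, was at 47.9, 21.7 and 14.7 FPKM in the white, brown and black skin (-1.11). MSX1 (10.4 and 4.85 FPKM in white and brown, -1.08) was lower as well, and HOXC13 (60.4 and 33.8, -0.81), DLX3 (75.2 and 38.8, -0.92), SHH (-0.93) and LEF1 (-0.69) lay below 0 within 2-fold. FGF5, whose product ends the growth phase of the hair, was at 2.49 FPKM in white and 0.565 in brown (-2.11), and its ratio was -1.13 with 1 FPKM added. FGF7, the dermal growth factor for keratinocytes, was the gene of the group on the other side, at 5.15 and 12.6 (1.32). The dermal papilla, the mesenchymal core of the bulb, did not share the pattern: its 13 genes had a median of 0.03, and RSPO3, a Wnt pathway amplifier, was higher in brown at 1.42 and 3.05 FPKM (1.13). The stem cell and resting follicle group had a median of -0.12 over 12 genes, with BMP2 at 11.1 and 5.39 (-1.02) as the member past 2-fold.

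The epidermis was split. In the basal layer 9 of 14 genes lay above 0 (median 0.19, but -0.06 when centred on the reference genes), and PDPN, podoplanin, was the member past 2-fold, at 20.4 FPKM in white and 61.9 in both brown and black (1.64). Of 31 differentiation genes, 27 lay below 0 (median -0.28). KRT77, a keratin of sweat ducts in humans, was at 397 FPKM in white and 131 in brown (-1.56), and IVL, the cornified envelope precursor involucrin, stood at the 2-fold edge. LY6D was opposite at 159.6, 519.6 and 279 FPKM in white, brown and black (1.73), and the abundant pair KRT1 (0.30) and KRT10 (-0.28) stayed near 0.

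Genes that keratinocytes switch on at wound edges and in irritated skin lay on the higher side. Of 12 described, 11 lay above 0, 4 were past 2-fold on the higher side and none on the lower (median 0.65). S100A8, a subunit of calprotectin made by stressed keratinocytes and by neutrophils, was at 19.6 FPKM in white, against 290.4 in brown and 912 in black (3.92). Its neighbour S100A12 was at 26.0, 103 and 491 (2.01), so for both genes brown stood between white and black. They form a run of 3 loci over 35.4 kb with LOC102182273 (19.7 and 141 FPKM in white and brown). IL36B, an epithelial cytokine of the interleukin-1 family, was at 0.0854, 4.61 and 0.219 (5.79), high in brown only, and its ratio was 2.40 with 1 FPKM added. KRT4, a keratin of moist epithelia, was at 3.14, 9.28 and 38.2 (1.59), and the stress keratin KRT6A at 1023, 1719 and 1479 (0.78). Of the 32 listed genes, 19 were not found in the table under these symbols.

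**Figure D4:**
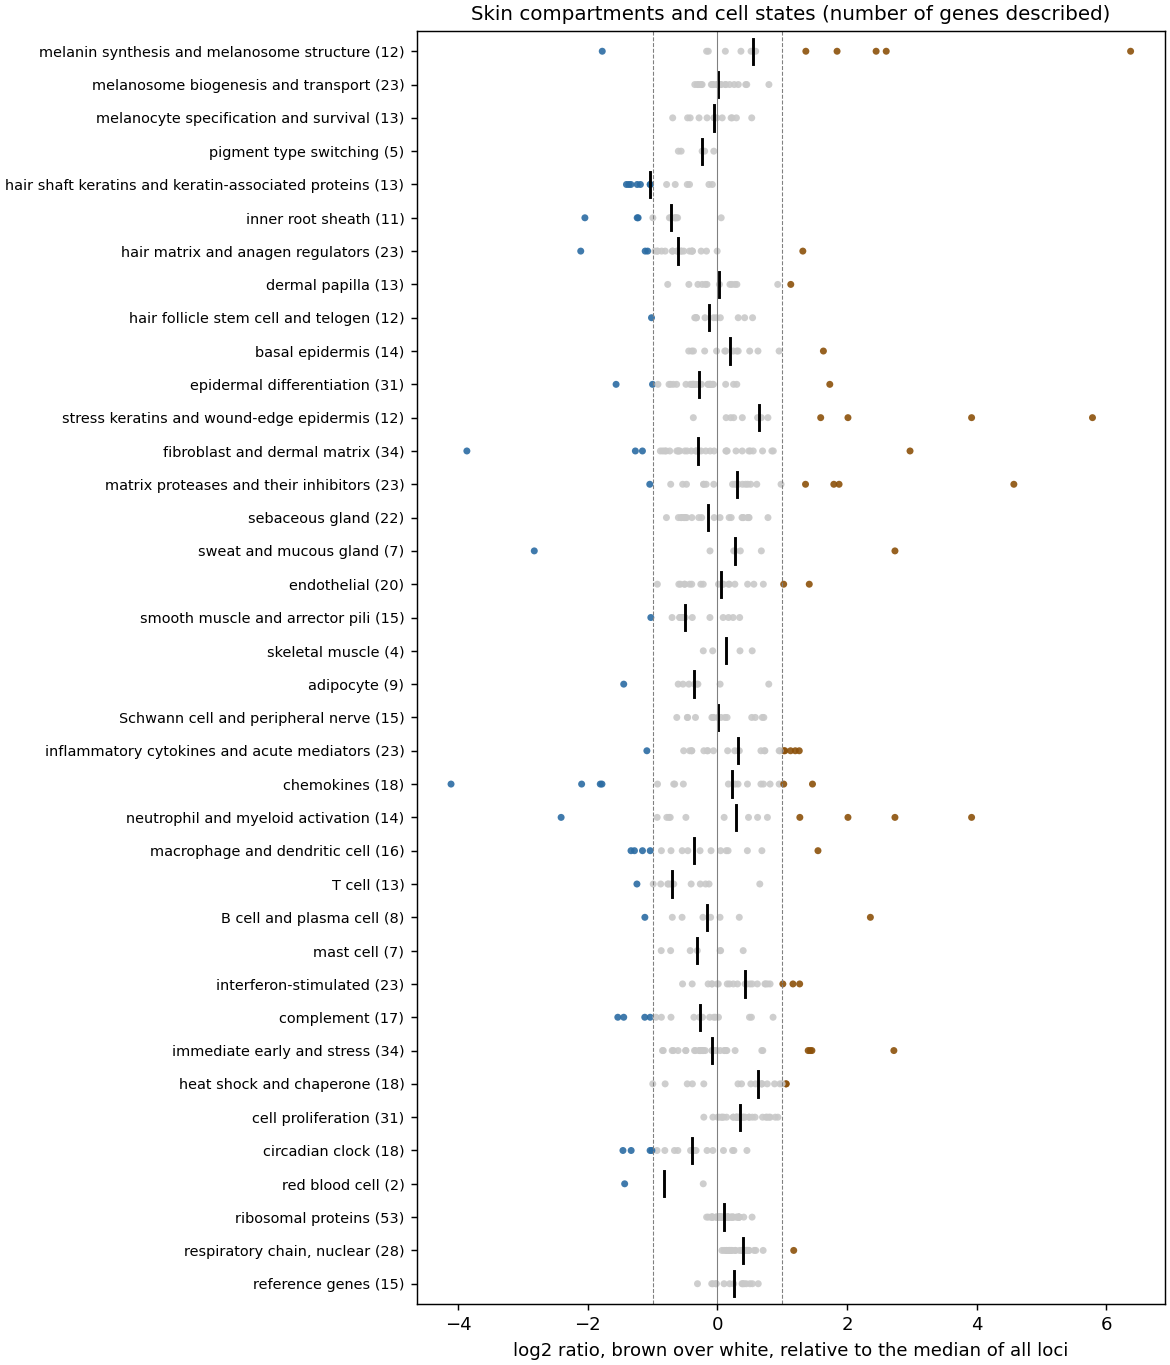
Each row is a gene group, with the number of genes described in brackets, and each point a gene at its log2 ratio of brown over white relative to the median of all loci (x axis); brown points are at least 2-fold higher in brown, blue points at least 2-fold lower, and the black bar is the median of the group. The bars of the hair shaft (-1.04), inner root sheath (-0.72) and T cell group (-0.69) lie farthest to the left apart from that of the 2 red blood cell genes (-0.82), and those of stress keratins (0.65), heat shock genes (0.63) and melanin synthesis (0.55) farthest to the right.

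In the dermis, 22 of 34 matrix genes lay below 0, with a median of -0.31, 3 were lower in brown and 1 was higher. COL6A5, a chain of the filament-forming type VI collagen, was at 107, 7.17 and 2.51 FPKM in the white, brown and black skin (-3.86). COL6A1 was at 292 and 119 in white and brown (-1.26) and COL6A2 at 187 and 82.1 (-1.16), yet COL6A3, which joins them in the same trimer, was at 54.6 and 95.8 (0.84). The chains of type VI collagen thus stood on both sides of 0. The fibrillar collagen genes COL1A1 (-0.60), COL1A2 (-0.63) and COL3A1 (-0.84) were below 0 within 2-fold. TNC, tenascin C, a matrix protein of wound edges and of the tissue around growing follicles, was at 13.7, 105 and 66.3 FPKM in white, brown and black (2.97).

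Matrix proteases and their partners leaned the other way, with 15 of 23 above 0, 4 higher in brown, 1 lower and a median of 0.31. MMP1, the collagenase that cleaves fibrillar collagen, was at 1.30 FPKM in white, against 30.3 in brown and 11.0 in black (4.57). MMP19 was at 4.46, 15.1 and 14.1 (1.80), and the protease inhibitor gene SERPINE2 at 7.27, 26.1 and 10.4 (1.88). PLAUR, the receptor of urokinase, was at 6.88 and 17.3 in white and brown (1.36), and the inhibitor gene TIMP1 at 148 and 286 (0.98), just short of 2-fold. MMP25 was lower, at 2.09 and 0.992 FPKM (-1.04).

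The groups of glands, vessels, muscle, nerve and fat were small, with up to 22 genes each. Their genes past 2-fold are to be read beside the shares over all loci, 2.65% higher and 4.53% lower. None of 22 sebaceous gland genes passed 2-fold (median -0.15), and AWAT1, a wax ester synthase, had the lowest ratio at -0.79. Among 7 sweat and mucous gland genes, FCGBP, a mucus protein that binds antibody, was at 249, 34.4 and 14.3 FPKM in the white, brown and black skin (-2.82). LTF, lactoferrin, was at 0.344, 2.25 and 2.83 (2.74), and its ratio was 1.30 with 1 FPKM added. Of 20 endothelial genes, 2 were higher in brown and the median was 0.05. SELE, E-selectin, which catches leukocytes on inflamed vessels, was at 10.2, 26.7 and 33.4 FPKM in white, brown and black (1.42), and ACKR1, a chemokine carrier of venules, at 2.15, 4.28 and 11.6 (1.02). The pan-endothelial gene PECAM1 was at 42.7 and 42.3 in white and brown (0.02). Smooth muscle genes had a median of -0.50 over 15, with LMOD1 at 10.7 and 5.14 (-1.03) and ACTA2 at 228 and 149 (-0.58). In the adipocyte group (9 genes, median -0.35) CFD, which is also complement factor D, was at 22.9 and 8.25 (-1.44). All 15 Schwann cell genes lay within 2-fold, with a median of 0.00.

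Inflammatory mediators lay mostly above 0 in brown skin. Of 23 described, 5 were higher, 1 was lower and 14 had a ratio above 0 (median 0.32). The prostaglandin enzymes PTGS2 (7.24 FPKM in white, 17.0 in brown, 1.26) and PTGES (26.2 and 56.1, 1.13) were both higher. IL6 (3.12 and 6.29, 1.04), the neutrophil attractant gene CXCL8 (2.18 and 4.34, 1.02) and TNFAIP6 (22.3 and 50.3, 1.20) were higher too. TNF went the other way at 4.01 and 1.85 FPKM (-1.09), and IL1B was at 3.31 and 2.26 (-0.52), so the cytokines did not move as a block.

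Chemokines stood at both ends, 2 of 18 higher and 4 lower, with a median of 0.22, which was -0.54 over those with an FPKM of at least 5 in either colour. Of white and brown, CCL17 and CX3CL1 reached 5 FPKM in white only and CCL19 in brown only. The limit also drops members of both sides, such as CXCL8 and CCL22, so the change of sign reflects which members passed. CCL17 was at 7.11 FPKM in white, against 0.404 in brown and 0.883 in black (-4.11), and CCL22, which binds the same T cell receptor CCR4, at 4.37, 1.24 and 1.87 (-1.78). CCL27, which draws T cells to the skin, was at 168, 47.1 and 41.3 (-1.81), and CCL26, an eosinophil attractant in humans, at 278, 63.8 and 84.0 (-2.09). All 4 were taken as lower in brown than in white, and their black values lay below the white ones too. CCL19, a ligand of CCR7, was at 3.66, 9.91 and 25.4 (1.47), lowest in white.

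Markers of T cells had ratios below 0 for 12 of 13 genes, mostly within 2-fold, with a median of -0.69 and summed levels of 53.9 FPKM in white and 35.3 in brown. CD3E was at 11.3 and 6.70 (-0.72), CD3D at 5.92 and 2.92 (-0.99) and CD4 at 1.61 and 0.667 (-1.24). CD4 was the member past 2-fold, and its ratio was -0.62 with 1 FPKM added. Whether the part of T cells in the punches bears on the chemokine levels was not tested. Of 16 macrophage and dendritic cell genes 4 were lower and 1 was higher (median -0.36): CCR7 (1.89 and 0.735 FPKM, -1.33) and LAMP3 (2.95 and 1.19, -1.28), both of mature dendritic cells, ITGAX (6.50 and 2.86, -1.16) and C1QA (37.1 and 17.7, -1.04) were lower, and the scavenger receptor gene MSR1 (0.760 and 2.18, 1.55) was higher. With 1 FPKM added, the ratio of CCR7 was -0.71 and that of MSR1 0.88. The 7 mast cell genes lay within 2-fold (median -0.31). In the complement group C3 was at 169, 57.1 and 45.5 FPKM in the white, brown and black skin (-1.54), with 4 of 17 genes lower and 13 below 0.

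The neutrophil group had no common direction (14 genes, 4 higher, 1 lower, median 0.29). Its higher members were S100A8, S100A12 and LTF, which epithelia also make, and TREM1 (1.45 and 3.43 FPKM in white and brown, 1.27). The receptor gene CXCR2 was at 6.31 and 8.61 (0.48) and ITGAM at 2.62 and 1.55 (-0.73). The oxidase subunit gene NCF1 was at 4.73 and 0.871 (-2.41), and its ratio was -1.59 with 1 FPKM added. Interferon-stimulated genes lay above 0 in 17 of 23 cases (median 0.43), with IFIT2 (1.72 and 4.05, 1.27), ISG15 (6.26 and 13.7, 1.17) and EPSTI1 (1.01) past 2-fold.

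Loci classed as variable segments or constant regions were among the highest ratios of the whole comparison, at modest levels. The annotation gives 13 of the loci described one of these classes, of which 5 were higher in brown and 1 was lower. All 13 carry LOC symbols, and the classes do not say whether a segment belongs to an antibody or a T cell receptor. LOC102176353, a variable segment, was at 6.92 FPKM in white, against 85.9 in brown and 10.3 in black (3.66). LOC102168903, a constant region, was at 3.53, 39.5 and 3.83 (3.52), and LOC102186478, a variable segment, at 0.589, 10.2 and 0.737 (4.14). At each of these 3 the brown value stood apart from both others, but at the constant region LOC102185461 (0.426, 4.28 and 5.10, 3.36) the black value lay above the brown one. Such segments resemble each other, so reads may be shared between them. JCHAIN, which joins the antibody units of IgA and IgM in plasma cells, was at 0.987, 4.96 and 1.20 FPKM (2.36), and its ratio was 1.61 with 1 FPKM added. The other B cell and plasma cell genes described ranged from -1.12 for IRF4 to 0.34 for XBP1. Whether 1 brown goat or both carried these transcripts was not tested.

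Several groups that report on the state of the tissue rather than on a cell type differed in level. In the heat shock and chaperone group 13 of 18 genes lay above 0 (median 0.63), with the mitochondrial chaperonins HSPD1 (62.3 FPKM in white, 127 in brown, 1.06) and HSPE1 (90.0 and 183, 1.06) past 2-fold. All 28 nuclear genes of the respiratory chain lay above 0 (median 0.39), led by ATP5G1, a subunit of ATP synthase, at 124 and 275 (1.18). Of 31 proliferation genes 29 lay above 0 and none passed 2-fold (median 0.35), with PCNA at 49.0 and 89.0 FPKM (0.89) and MKI67 at 5.82 and 5.71 (0.00). The 15 reference genes had a median of 0.25 and the 53 ribosomal protein genes one of 0.10 (-0.15 when centred on the reference genes), so genes often taken as constant lay above 0 too. Over all loci the median also differed by level, at -0.12 for a mean FPKM of 1 to 3 and 0.11 above 100. These groups were not matched for level. Centred on the reference genes, each ratio in the text is lower by 0.25.

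The immediate early genes, which respond to handling of tissue within minutes, had a median of -0.08 over 34, with 22 below 0 and 4 higher in brown. FOS was at 27.6, 74.1 and 12.8 FPKM in the white, brown and black skin (1.46) and FOSL1 at 1.66, 10.7 and 13.0 (2.72), while EGR1 was at 56.6, 46.5 and 27.9 (-0.25). The nuclear receptor genes NR4A2 (1.40) and NR4A3 (1.43) were higher as well. Clock genes lay below 0 in 14 of 18 cases (median -0.39). Past 2-fold were, among others, the output gene DBP (31.7 FPKM in white, 12.4 in brown, -1.33) and the repressors PER1 (20.3 and 7.24, -1.46) and PER3 (-1.01). The activators CLOCK (0.46) and ARNTL (0.23) lay above 0. The labels state that all goats were sampled at the same time point, and the part of the hour of day or of handling in these values was not tested. Of 2 red blood cell genes described, SLC4A1 was at 1.88 and 0.684 FPKM (-1.43) and CA2 at 162 and 136 (-0.22).

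Beyond the groups, the largest ratios belonged to genes of many functions. Of 642 genes in any group, 40 were higher in brown and 43 were lower, so most loci of both ends lie outside the groups. Among the 15 largest positive ratios at an FPKM of at least 5 in one colour, APOBEC3A, a cytidine deaminase of innate defence, was at 0.144 FPKM in white, against 6.80 in brown and 6.27 in black (5.59), and GNGT1, a G protein gamma subunit, at 0.797, 8.80 and 3.49 (3.50). MS4A8 was at 0.890, 5.33 and 9.57 (2.61), and FAM111B at 1.09, 5.08 and 1.44 (2.25). FAM111B stood high in brown only, whereas for APOBEC3A and MS4A8 black was near or above brown.

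Among the 15 largest negative ratios, NOX5, a calcium-activated NADPH oxidase, was at 18.1, 1.25 and 1.48 FPKM in the white, brown and black skin (-3.83), and GNG13, another G protein gamma subunit, at 9.90, 0.685 and 0.165 (-3.82). OTOR, a small secreted protein first known from the inner ear, was at 85.2, 10.9 and 16.5 (-2.93). The peptide genes GRP (5.02 and 0.395 in white and brown, -3.64) and CCK (5.40 and 0.859, -2.62), the ferritin receptor gene SCARA5 (16.8 and 2.55, -2.69), TNFRSF11B, which encodes osteoprotegerin (10.8 and 1.62, -2.71), TM4SF5 (25.7 and 3.06, -3.04) and SLURP1 (7.19 and 1.86, -1.92) also belonged here. PDK4, which shifts cells from glucose to fat oxidation, was at 17.5, 2.79 and 2.82 (-2.61). For each of these 10 genes white lay above brown by the choice of the genes, and black lay below white as well. A high white value used in the choice favours that order. Ratios that rest on a value near 0 shrank with 1 FPKM added, to 2.80 for APOBEC3A, 2.47 for GNGT1, -2.50 for CCL17, -2.67 for GNG13 and -2.08 for GRP, and 30 of 219 named genes moved by more than 1.5-fold in this way.

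**Figure D5:**
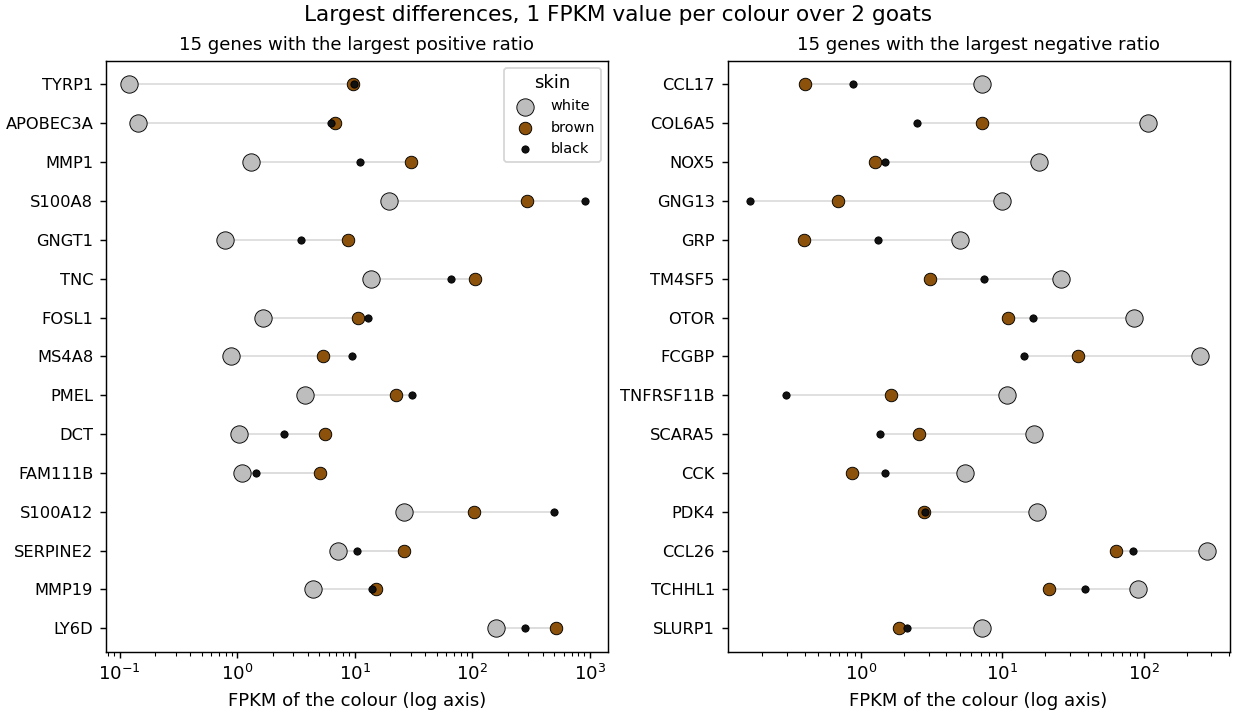
FPKM (x axis, log scale) of the 15 genes with the largest positive (left) and the 15 with the largest negative ratio (right) in white (large grey points), brown (brown points) and black skin (small black points), 1 value per colour over its 2 goats. White is the lowest value in every row on the left and the highest in every row on the right, while black lies on either side of brown. The rows were picked by the ratio of brown over white, so the order of white and brown was fixed in advance. A low or high white value used in that choice also favours black lying on the side of brown.

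Of loci with a LOC symbol, LOC102184692 had the largest positive ratio at 2.26 FPKM in white, against 78.8 in brown and 34.5 in black (5.16). LOC102171783 (2.43, 50.5 and 1.71), LOC102168431 (1.29, 22.5 and 1.17) and LOC102176954 (0.541, 8.68 and 0.575) were high in brown only. On the negative side, LOC106502238 was at 46.6, 0.894 and 0.683 FPKM (-5.67), LOC106503930 at 13.9, 1.03 and 8.28 (-3.73) and LOC102171419 at 10.2 and 0.818 and listed at 0 in black (-3.61). LOC106502015 (349, 10.6 and 202) and LOC102173922 (7.12, 0.223 and 7.26) were low in brown only. LOC symbols made up 163 of the loci higher in brown, 275 of those lower and 2410 of all. By class, 1.96% of 12176 protein-coding loci were higher and 4.00% lower, against 8.73% and 12.7% of 355 long non-coding RNAs. These classes were not matched for level, and at a mean FPKM of up to 1, 19.5% of all loci were higher and 28.5% lower. Pseudogenes leaned to one side, with 40 of 268 higher and 11 lower; reads may be shared with their parent genes. LOC106502857, which the annotation does not list, carried the highest value of the table at 1447820, 430170.0 and 1043150.0 FPKM in the white, brown and black skin (-1.72), and its part in the scaling of other values was not tested.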

How the data were processed

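RNA of flank skin from 2 white, 2 brown and 2 black goats was sequenced as paired reads after poly-A selection. According to the methods, the authors aligned the reads with TopHat on a Bowtie index (the submitters' notes name Bowtie2 version 2) to a goat genome whose build is not named, reported all positions of reads that match several places, and measured and compared genes with Cufflinks and CuffDiff. The FPKM values used here are those the authors deposited, 1 for the 2 goats of each colour; the scaling of libraries is not given in the sources used here. Each colour's value was the same in both comparisons it enters at all 26938 loci. The table's other columns hold the authors' log2 fold changes, test statistics, p-values, q-values and significance calls, which were not used; the status column was used (14506 loci OK, 12428 NOTEST, 4 FAIL).

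Log2 ratios of brown over white were computed without a pseudocount with Python 3.11.15, pandas 2.3.3 and numpy 2.4.6, and the median over 13351 loci that reached 1 FPKM in white and in brown was subtracted. No error, fragment count or test could be had from 1 value per colour. The steps were tested on simulated data. Symbols were matched to a RefSeq goat annotation, ARS1.2, for classes only: 12912 of 14129 loci with 1 name were found. Another 148 loci carry several names and 7 none. Runs are 3 or more neighbouring loci of the same end.

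There were 38 gene groups: melanin synthesis and melanosome structure, melanosome transport, melanocyte specification, pigment switching, hair shaft, inner root sheath, hair matrix, dermal papilla, follicle stem cell, basal, differentiating and stressed epidermis, dermal matrix, proteases, sebaceous and sweat glands, endothelium, smooth and skeletal muscle, adipocyte, Schwann cell, cytokines, chemokines, neutrophil, macrophage, T, B and mast cell, interferon, complement, immediate early, heat shock, proliferation, clock, red blood cell, ribosomal, respiratory and reference genes. Members and groups were chosen with earlier results of these data known. Genes named are the 15 largest positive and 15 largest negative ratios with an FPKM of at least 5 in one colour and no LOC symbol, 5 LOC loci of each end, per group up to 4 members of each end and 3 other abundant members, and the genes of melanin synthesis and pigment switching. Others, such as those at a limit, at the end of a range or beside a named gene, were chosen after their values were seen. Some genes of the groups are not reported here. In total 9 alternatives of centring, pseudocount, filter and status were tried.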

Additional observations from a re-analysis of the deposited data

How the results depend on the processing

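The count of loci past 2-fold depended most on the centre and on low values. Loci higher and lower in brown, 376 and 643 as reported, numbered 210 and 1115 with the median of reference genes subtracted (0.22 on the log2 scale in place of -0.03), 212 and 372 with 1 FPKM added to each value, 234 and 413 where white and brown both reached 1 FPKM, and 171 and 329 with an FPKM of at least 5 in either. With no median subtracted (340 and 687), a median per class of locus span subtracted (372 and 640), 0.1 FPKM added (386 and 646), no filter (391 and 663) or rows of any status (378 and 647), both counts stayed within 1.5 times. Of 104 named genes past 2-fold, 93 stayed so on the reference genes and 79 with 1 FPKM added, and none of the 104 changed sign where it had a value (78 of them where both colours reached 1 FPKM, 81 with an FPKM of at least 5 in either, all 104 under the other alternatives). These genes were taken past 2-fold, and the alternatives shift the centre by less, shrink the ratios or change the filter. Unchanged signs were thus fixed in advance and carry no weight. Group medians that moved by more than 1.5-fold were those of melanin synthesis (1.89) and chemokines (-0.54) with an FPKM of at least 5 in either colour, and of the 2 red blood cell genes where both colours reached 1 FPKM (-0.22) or one reached 5 (-0.23). These filters change which genes enter a median, and some genes pass the limit of 5 FPKM in a single colour. The moves thus follow from the choice of members. Medians near 0 changed sign under some alternatives: melanosome transport under 4, Schwann cell under 5, endothelium under 3, chemokines under 2, and dermal papilla, basal epidermis, skeletal muscle and ribosomal proteins under 1 each. Group counts moved in 6 of 38 groups for higher and 11 of 38 for lower genes with 1 FPKM added, in 7 and 10 on the reference genes, and in 8 and 8 with an FPKM of at least 5 in either colour. Leaving out a replicate could not be run, since each colour has 1 value. No paired analysis was possible because the table holds 1 column value per colour and none per goat. The table gives no fragment counts, so the precision of low values cannot be stated.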

Other observations

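Some further gene groups were put together after the values had been seen, so their counts and medians describe these values and carry no other weight. All 24 genes of the nucleolus and ribosome biogenesis described lay above 0, with a median of 0.72, and 3 were at least 2-fold higher in brown skin. Of the 24, the spermidine synthase gene SRM was at 13.3 FPKM in white and 30.2 in brown (1.21), GPATCH4 at 7.39 and 17.0 (1.24), and NPM1, which encodes the abundant nucleolar protein nucleophosmin, at 197 and 348 (0.85). Genes that license and start DNA replication lay above 0 in 17 of 18 cases (median 0.83), 7 of them past 2-fold, with ORC1, a subunit of the origin recognition complex, at 3.04 and 6.88 (1.21) and the checkpoint kinase gene CHEK1 at 4.78 and 10.1 (1.11). Of 20 genes of protein folding and stress in the endoplasmic reticulum 2 were past 2-fold (median 0.43, lowest -0.38 for SESN2). The highest was MANF at 76.2 and 171 FPKM (1.20). Centred on the reference genes, these medians and ratios are lower by 0.25.

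Genes that glucocorticoids induce lay below 0 in 14 of 17 cases (median -0.37), and 6 were at least 2-fold lower in brown. TSC22D3, which encodes the leucine zipper protein GILZ, was at 68.2, 22.8 and 26.8 FPKM in the white, brown and black skin (-1.55), ZBTB16 at 8.89, 2.89 and 1.05 (-1.59) and KLF9 at 25.6, 11.5 and 10.6 (-1.13). FKBP5, another gene of this kind, stayed within 2-fold at 26.0, 21.4 and 18.9 (-0.25). The other members past 2-fold were PDK4, FAM107A and PER1, and PER1 also counts among the clock genes. Matricellular proteins stood at both ends: THBS1 (78.6 and 184 FPKM in white and brown, 1.26), THBS2 (20.4 and 58.9, 1.56) and WISP1 (1.72) were higher with TNC, and THBS4 (63.7 and 16.7, -1.90) and TNN (-1.22) were lower. Among abundant loci outside the groups, S100A2, a calcium-binding protein of basal keratinocytes, was at 874, 2437 and 1779 FPKM in white, brown and black (1.51), FGFBP1 at 73.2, 203 and 172 (1.50), and APOD, apolipoprotein D, at 406, 152 and 161 (-1.39).

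Of the loci listed at 0 in one colour, TFF2, a mucosal trefoil factor, was at 4.35 FPKM in white and listed at 0 in brown, IRX2 at 4.05 and 0, and RBM24 at 2.47 and 0. LOC102186207 was listed at 0 in white and at 17.0 FPKM in brown, and LOC106503030 at 21.4 in white and 0 in brown.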
